A study of Mus musculus with 20 samples.

Results

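The transcripts of 10 regulators of fatty acid oxidation and mitochondrial biogenesis were followed in skeletal muscle and liver of mice that carried 1 disrupted copy of Adck2. They were the nuclear receptors Ppara, Ppard, Pparg, Rxra and Esrra, the coactivators Ppargc1a and Ppargc1b, the nuclear respiratory factors Nrf1 and Gabpa, and the mitochondrial DNA-binding protein Tfam. All probes annotated to these genes were taken, which gave 15 probes of 25697 on the array and 10 genes of 16593. Of the 10 genes, 7 had 1 probe, Tfam had 2, and Pparg and Gabpa had 3 each.

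RNA from 20 tissue samples was hybridised to Illumina bead arrays, 1 array per sample, in 4 groups of 5: Adck2+/- muscle, WT muscle, Adck2+/- liver and WT liver. The Adck2+/- mice were heterozygous knockouts derived from embryonic stem cell clones of a public mutant collection, and the WT mice carried 2 intact copies. The disrupted copy was not limited to a tissue. The labels gave the strain as B6N and the age of all mice as 3 years, whereas the methods of the study gave an age in months, and all mice of the study were male. The labels did not say whether muscle and liver samples with the same number came from 1 mouse.

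Peroxisome proliferator-activated receptors (PPARs) bind DNA as pairs with retinoid X receptors such as the one encoded by Rxra, and are switched on by fatty acids. PPAR alpha drives fatty acid oxidation in liver, PPAR delta does so in muscle, and PPAR gamma directs the formation of adipocytes and their lipid storage. The coactivators PGC-1 alpha and PGC-1 beta, encoded by Ppargc1a and Ppargc1b, dock on these receptors, on the oestrogen-related receptor ERR alpha of Esrra, and on the nuclear respiratory factors NRF1 and GABP, which in turn drive nuclear genes of the respiratory chain and Tfam, the protein that packages and transcribes mitochondrial DNA.

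The promoters of 4 of the regulators are printed because the results below turn on these genes. Tfam and Esrra moved in opposite ways across the liver arrays, Ppara was measured in liver alone, and Ppargc1a had the widest difference between the tissues among the 8 regulators detected in both. Each run is the 250 bases before the annotated transcription start, 5′ to 3′, from RefSeq on GRCm38.p6, with matches to the motifs described next in capitals.
Tfam (chr10:71238045-71238294, minus strand): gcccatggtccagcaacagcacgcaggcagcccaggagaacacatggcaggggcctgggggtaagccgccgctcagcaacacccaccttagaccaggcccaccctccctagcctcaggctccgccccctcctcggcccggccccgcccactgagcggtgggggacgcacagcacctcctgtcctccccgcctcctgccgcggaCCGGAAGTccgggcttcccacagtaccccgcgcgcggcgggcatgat
Ppara (chr15:85735526-85735775, plus strand): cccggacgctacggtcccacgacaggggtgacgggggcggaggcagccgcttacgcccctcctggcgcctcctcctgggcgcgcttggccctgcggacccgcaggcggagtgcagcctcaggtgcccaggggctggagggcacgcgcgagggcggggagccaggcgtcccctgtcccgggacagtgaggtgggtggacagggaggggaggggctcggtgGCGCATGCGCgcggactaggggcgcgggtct
Esrra (chr19:6921809-6922058, minus strand): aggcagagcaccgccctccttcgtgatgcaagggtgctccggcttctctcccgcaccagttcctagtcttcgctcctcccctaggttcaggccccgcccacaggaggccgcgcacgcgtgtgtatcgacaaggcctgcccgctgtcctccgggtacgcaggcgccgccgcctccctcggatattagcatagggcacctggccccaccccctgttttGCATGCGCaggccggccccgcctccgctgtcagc
Ppargc1a (chr5:51567726-51567975, minus strand): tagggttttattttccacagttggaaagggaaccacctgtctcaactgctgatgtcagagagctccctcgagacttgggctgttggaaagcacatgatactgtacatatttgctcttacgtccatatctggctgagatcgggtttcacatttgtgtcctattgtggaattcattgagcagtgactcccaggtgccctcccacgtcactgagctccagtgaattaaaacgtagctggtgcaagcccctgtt

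The promoter table held windows for 9 of the 10 genes, 13 windows in all, and not for Ppargc1b. Of 14 letter strings searched on both strands, 5 are described here, namely those bound by factors among the regulators and the CREB site. The NRF1 core GCGCATGC was found in the windows of Ppara, on both strands in overlapping positions 31 to 22 bases before the start, and of Esrra, on the opposite strand 34 to 27 bases before it. It was in 2.26% of all 32851 windows. The GABP motif CCGGAAGT was found once, 47 to 40 bases before the start of Tfam, and in 2.88% of all windows. The ERR motif TCAAGGTCA (0.387% of all windows), the PPAR and RXR direct repeat of AGGTCA with 1 base between (0.0335%) and the CREB motif TGACGTCA (1.55%) matched none of the 13 windows. A match is a description of the letters in the window, and none of these data measured binding.

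Between 11626 and 12604 probes were detected on each muscle array and between 11749 and 12493 on each liver array. The number of arrays limits the precision. In each tissue the probe for Adck2 rose above background on 3 arrays of 10, with a median signal of 145 in Adck2+/- muscle and 138.3 in WT muscle, and of 195.4 in Adck2+/- liver and 175.5 in WT liver, so the genotype could not be checked from it. The tissue labels held, in that 11 of 12 muscle fibre markers were measured in muscle, all but Myh2, and 1 of 12 in liver. Of 12 hepatocyte markers, 7 were measured in liver, with a summed signal of 148207 to 164746 on the Adck2+/- arrays and 154781 to 163859 on the WT arrays, while those not detected widely enough included Apob, Fgb, Fabp1 and Tat. In muscle 5 of them were measured, with a sum of 369 to 12208 on the Adck2+/- arrays, where replicate 4 was the highest, and 241 to 4656 on the WT arrays. In liver, Adck2+/- replicates 1 and 4 and WT replicate 3 stood apart from the other 7 arrays on the first principal component of all genes, which held 45.9% of the variance. Liver differences of the regulators are therefore given with and without these 3 arrays.

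A regulator counted as measured in a tissue if its probe was detected (detection p under 0.05) on at least 5 of the 10 arrays. In muscle 8 of the 10 regulators were measured and in liver 9. Ppard, the PPAR that is best known in muscle, was detected on 0 of 10 arrays in either tissue: its raw signal was 108.0 to 161.3 in Adck2+/- muscle and 97.2 to 143.2 in WT muscle, and 122.7 to 181.4 in Adck2+/- liver and 111.4 to 166.1 in WT liver. Ppara was detected on 0 of 10 muscle arrays and on 10 of 10 liver arrays. This says only that these probes were not above background there. Neither gene was tested for genotype where it was not measured. Ppara did enter the comparison of WT muscle with WT liver, through its liver signal.

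The first comparison asked whether the loss of 1 Adck2 copy changed the regulators in muscle. None of the 8 measured regulators passed the test at an adjusted p under 0.05, while 159 of all 8424 genes did (1.89%). With single arrays left out the count over all genes ran between 14 without WT replicate 5 and 689 without Adck2+/- replicate 5, and no regulator passed in these fits on the probe that stood for its gene. On the brightest measured probe of each gene, 1 regulator of 8 had an unadjusted p under 0.05, against 22.3% of all genes. The groups overlapped for all 8, whereas they did not overlap for 6.23% of all genes. The differences of the 8 lay between -0.48 and 0.42 on the log2 scale, with a median of 0.05 against -0.01 over all genes. Values below are normalized log2 signals of the tissue, and differences are Adck2+/- minus WT with their standard error (SE) over 5 mice a group. In bulk tissue, fewer cells of a type and less RNA per cell cannot be told apart.

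**Figure D1:**
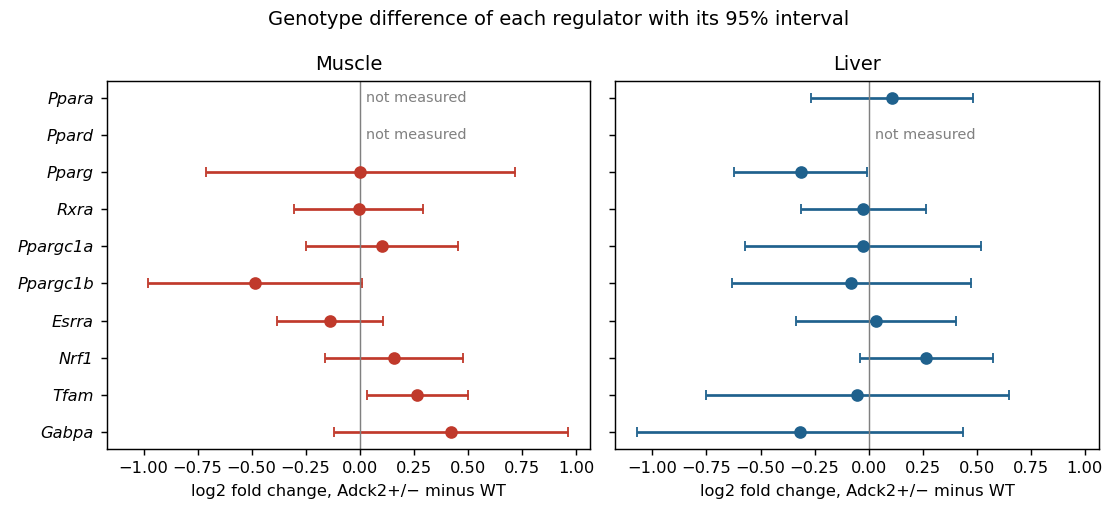
Log2 fold change of each regulator, Adck2+/- minus WT, in muscle (left panel) and liver (right panel). Points are the fitted differences over 5 mice a group and bars their 95% intervals, which leave out 0 for Tfam in muscle and Pparg in liver before adjustment over all genes and for neither after it.

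Tfam, which packages and transcribes the mitochondrial genome, had the smallest p of the 8 on the brightest measured probe of each gene. Its signal was 10.54, 10.50, 10.28, 10.37 and 10.24 in Adck2+/- muscle, against 10.25, 10.27, 9.92, 10.07 and 10.12 in WT muscle. Of the Adck2+/- values 4 lay above every WT value, and the fifth lay within the WT range. The limma difference was 0.27 (SE 0.11, 95% interval 0.03 to 0.50, a fold of 1.20, adjusted p = 0.171). On the brightest probes Tfam alone of the 8 had an unadjusted p under 0.05, while the dimmer Gabpa probe described next had a smaller p. The other Tfam probe gave the same difference, 0.27 (SE 0.11).

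Gabpa, the DNA-binding subunit of GABP, had 3 probes, of which 2 were measured in muscle. On the brighter probe the Adck2+/- values were 8.28, 7.60, 7.24, 7.42 and 6.83, against WT values of 7.12, 7.31, 6.55, 6.86 and 7.42, and the difference was 0.42 (SE 0.25, 95% interval -0.12 to 0.96, adjusted p = 0.34), or 0.22 without Adck2+/- replicate 1. On the dimmer probe the Adck2+/- values were 7.0, 6.89, 6.79, 6.78 and 6.60, against WT values of 6.28, 6.60, 5.66, 6.35 and 6.37. There the groups met at 6.60 and were otherwise apart. In limma the dimmer probe differed by 0.56 (SE 0.16), with an unadjusted p of 0.00499. Its adjusted p was 0.0648 over the 12115 measured probes, of which 5.54% passed. Leaving out Adck2+/- replicate 5 gave an adjusted p of 0.0445 for this Gabpa probe, and leaving out WT replicate 2 gave 0.0481. In these fits 689 and 155 of all genes passed, against 159 with every array. With any other single array left out, no probe of a regulator passed. The signals of the 3 Gabpa probes stood in another order in the 2 deposited tables, so which probe carried which signal is not settled.

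Nrf1, which drives nuclear genes of the respiratory chain, was 7.72, 7.70, 8.01, 7.31 and 7.21 in Adck2+/- muscle, against 7.33, 7.51, 7.44, 7.41 and 7.47 in WT muscle. Replicates 1, 2 and 3 of the Adck2+/- group lay above all WT values and replicates 4 and 5 below all of them. The mean difference was 0.16 (SE 0.15, 95% interval -0.16 to 0.48, adjusted p = 0.553), and 0.05 without Adck2+/- replicate 3. Adck2+/- replicates 1, 2 and 3 had the 3 lowest scores of the 10 muscle arrays on the first component of all genes (-17.8, -27.8 and -27.6), and the part of that component in the Nrf1 values was not tested.

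The 2 coactivators differed in sign. Ppargc1a, the coactivator induced by exercise and fasting, was 9.57, 9.21, 9.74, 9.31 and 9.15 in Adck2+/- muscle, against 9.51, 9.42, 9.04, 9.56 and 8.94 in WT muscle, a difference of 0.10 (SE 0.16, 95% interval -0.25 to 0.46, adjusted p = 0.737). Ppargc1b was 9.81, 9.06, 8.68, 8.99 and 9.42 in Adck2+/- muscle, against 9.95, 9.98, 9.06, 9.82 and 9.58 in WT muscle. Its Adck2+/- mean was the lower one, with WT replicate 3 at the level of Adck2+/- replicate 2. The limma difference of Ppargc1b, -0.48 (SE 0.23, a fold of 0.715), was the widest of the 8 regulators in either direction and had a 95% interval of -0.98 to 0.01 (adjusted p = 0.234).

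Esrra, the receptor through which PGC-1 proteins reach many oxidative genes, was 11.47, 11.24, 11.44, 11.39 and 11.55 in Adck2+/- muscle, against 11.85, 11.56, 11.39, 11.53 and 11.42 in WT muscle. The groups overlapped, and the difference was -0.14 (SE 0.11, 95% interval -0.38 to 0.11, adjusted p = 0.508). Rxra, the partner of the PPARs on DNA, was 6.50, 6.12, 6.32, 6.50 and 6.24 in Adck2+/- muscle, against 6.03, 6.59, 6.61, 6.19 and 6.28 in WT muscle. Both groups spanned nearly the same range, with a difference of -0.01 (SE 0.14, 95% interval -0.31 to 0.29, adjusted p = 0.987).

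Pparg, the receptor of adipocyte formation, was 7.22, 7.29, 7.38, 7.50 and 9.24 in Adck2+/- muscle, against 7.93, 7.58, 7.65, 7.70 and 7.75 in WT muscle. The first 4 Adck2+/- values lay below every WT value and that of replicate 5 lay far above all of them, so that the mean difference was 0.00 (SE 0.33, 95% interval -0.71 to 0.72, adjusted p = 0.998). Without Adck2+/- replicate 5 the Pparg difference was -0.37, with an adjusted p of 0.0596. The other measured Pparg probe was also highest on that array, at 7.64, against 4.85 to 5.68 on the other Adck2+/- arrays and 5.08 to 6.17 on the WT arrays. It differed by 0.26 (SE 0.41) between the genotypes.

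Markers of adipocytes moved with Pparg on that array. Of 8 adipocyte markers 5 were measured in muscle, and Fabp4, Retn and Cfd were not. Their summed signal was 25870 to 35676 on the Adck2+/- arrays and 17084 to 32052 on the WT arrays, most of it from Lpl, which muscle fibres also make. Without Lpl the sum was 494, 1070, 431, 640 and 5174 on the Adck2+/- arrays, against 2590, 161, 2193, 1363 and 1553 on the WT arrays. Adck2+/- replicate 5 was the highest of the 10 and WT replicate 2 the lowest. Adipoq, the adipocyte hormone adiponectin, was 8.45, 9.53, 8.34, 8.91 and 11.82 in Adck2+/- muscle, against 10.88, 6.99, 10.60, 9.97 and 10.14 in WT muscle. WT replicate 2 had the lowest WT value of Pparg as well, 7.58, next to 7.65 on WT replicate 3. Adck2+/- replicates 1 to 4 had lower Pparg values still, 7.22 to 7.50. Their Adipoq values, 8.34 to 9.53, lay above the 6.99 of WT replicate 2. The part of adipocyte content in the Pparg values was not tested. Without both Adck2+/- replicate 5 and WT replicate 2 none of the 8 regulators passed, while 734 of all genes did, and Pparg differed by -0.41 with an adjusted p of 0.0603.

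**Figure D2:**
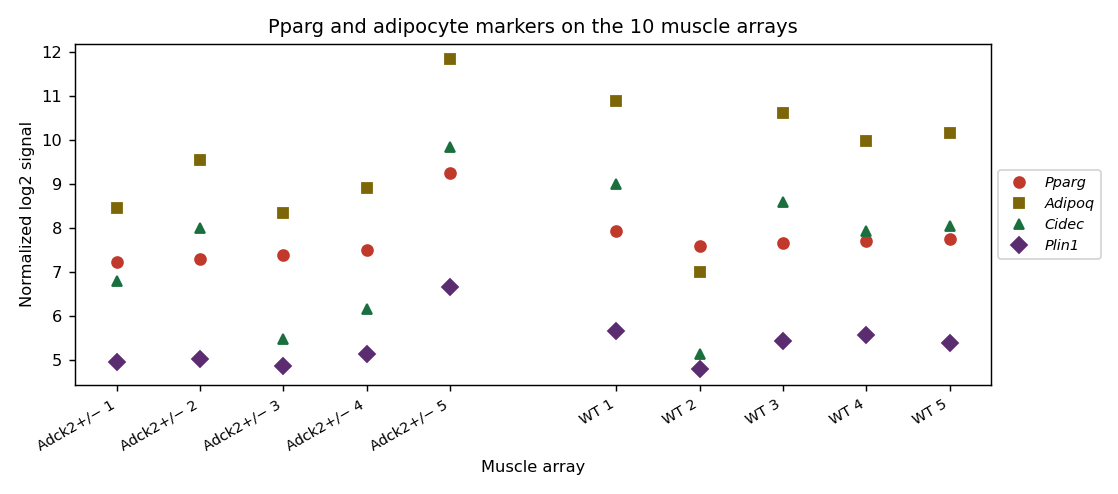
Normalized log2 signal (vertical axis) of Pparg and of the adipocyte markers Adipoq, Cidec and Plin1 on each of the 10 muscle arrays, with the 5 Adck2+/- arrays left of the 5 WT arrays. All 4 genes were highest on Adck2+/- replicate 5, where Pparg was 9.24 against 7.22 to 7.50 on the other Adck2+/- arrays and 7.58 to 7.93 on the WT arrays.

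The same comparison was made in liver. None of the 9 measured regulators passed the test, while 1 of all 8484 genes did (0.0118%). At an unadjusted p under 0.05, 1 regulator of 9 passed, against 7.04% of all genes, and the groups overlapped for all 9, whereas they did not overlap for 1.8% of all genes. The differences ran between -0.32 and 0.27, with a median of -0.03 against 0.01 over all genes.

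Ppara, the receptor that drives hepatic fatty acid oxidation in fasting, was 6.83, 6.74, 6.44, 7.02 and 6.14 in Adck2+/- liver, against 6.30, 6.44, 6.78, 6.42 and 6.69 in WT liver. The groups overlapped, with a difference of 0.11 (SE 0.17, 95% interval -0.27 to 0.48, adjusted p = 0.971). It was -0.02 without the 3 arrays that stood apart, and 0.01 without Adck2+/- replicate 4 alone. Pparg was 8.85, 9.51, 9.34, 8.92 and 9.12 in Adck2+/- liver, against 9.43, 9.30, 9.62, 9.53 and 9.43 in WT liver. Replicates 1, 4 and 5 of the Adck2+/- group lay below all WT values. The limma difference of Pparg was -0.32 (SE 0.14, 95% interval -0.62 to -0.01, adjusted p = 0.702), the 1 regulator under 0.05 before adjustment, and it was -0.10 (SE 0.12, adjusted p = 0.818) without the 3 arrays. Rxra was 7.90, 8.19, 7.98, 7.78 and 7.98 in Adck2+/- liver, against 8.25, 8.20, 7.83, 7.94 and 7.73 in WT liver, a difference of -0.02 (SE 0.13, 95% interval -0.31 to 0.27), and of 0.02 without the 3 arrays.

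Ppargc1a, which drives gluconeogenesis in the fasted liver, was 7.81, 6.81, 7.09, 7.34 and 6.79 in Adck2+/- liver, against 7.73, 7.46, 7.18, 6.49 and 7.10 in WT liver, a difference of -0.03 (SE 0.25, 95% interval -0.57 to 0.52). Without the 3 arrays it was -0.30 (SE 0.27, adjusted p = 0.732). Ppargc1b, the coactivator tied to hepatic lipid synthesis, was 9.59, 8.53, 8.43, 9.36 and 8.44 in Adck2+/- liver, against 9.07, 9.05, 8.64, 8.63 and 9.36 in WT liver. In the Adck2+/- group replicates 1 and 4, which are 2 of the arrays that stood apart, held the high values, and the other 3 lay below every WT value. Over all 10 arrays Ppargc1b differed by -0.08 (SE 0.25, 95% interval -0.63 to 0.47), and without the 3 arrays by -0.56 (SE 0.17, adjusted p = 0.327).

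Nrf1 was 8.88, 8.64, 8.45, 8.72 and 8.57 in Adck2+/- liver, against 8.03, 8.23, 8.67, 8.52 and 8.46 in WT liver. Adck2+/- replicates 1 and 4 were above all WT values, and the other 3 lay within the WT range. The difference was 0.27 (SE 0.14, 95% interval -0.04 to 0.58, adjusted p = 0.758), and 0.24 (SE 0.14, adjusted p = 0.565) without the 3 arrays. Gabpa was 6.72, 7.14, 7.43, 5.72 and 6.78 in Adck2+/- liver, against 7.51, 7.43, 6.31, 7.62 and 6.49 in WT liver, a difference of -0.32 (SE 0.34, 95% interval -1.07 to 0.44). It was -0.15 (SE 0.28, adjusted p = 0.884) without the 3 arrays and -0.06 without Adck2+/- replicate 4 alone. The other measured Gabpa probe ran the other way, with 0.41 (SE 0.29, adjusted p = 0.912).

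Tfam and Esrra separated the 3 liver arrays that stood apart. These arrays were picked on the first component of all genes, which held 45.9% of the variance. How many other genes separate them was not counted. Tfam was 8.93, 9.81, 10.03, 8.82 and 9.95 in Adck2+/- liver, against 9.98, 9.99, 8.63, 9.85 and 9.35 in WT liver. Esrra was 10.79, 10.27, 10.11, 10.80 and 10.29 in Adck2+/- liver, against 10.29, 10.29, 10.81, 10.41 and 10.28 in WT liver. Adck2+/- replicates 1 and 4 and WT replicate 3 thus had the 3 lowest Tfam values and the 3 highest Esrra values. The second Tfam probe ordered these arrays in the same way, with 8.44 and 8.75 on the 2 Adck2+/- arrays and 8.42 on the WT array, and at least 8.99 on the other 7.

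Over the 10 liver arrays, after the mean of each genotype was taken off, Tfam correlated with Esrra at r = -0.92, with Ppara at -0.83, with Nrf1 at -0.79 and with the brighter Gabpa probe at 0.86. The other measured Gabpa probe, set against Tfam after the first value was seen, gave 0.24. These are descriptions over 10 arrays that share the first component, and no p is given. The genotype difference was -0.05 for Tfam (SE 0.32, 95% interval -0.75 to 0.65) and 0.04 for Esrra (SE 0.17, 95% interval -0.34 to 0.41). Without the 3 arrays it was 0.13 for Tfam (SE 0.17, adjusted p = 0.818) and -0.09 for Esrra (SE 0.10, adjusted p = 0.796). Neither a regulator nor any other gene passed in that limma fit.

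**Figure D3:**
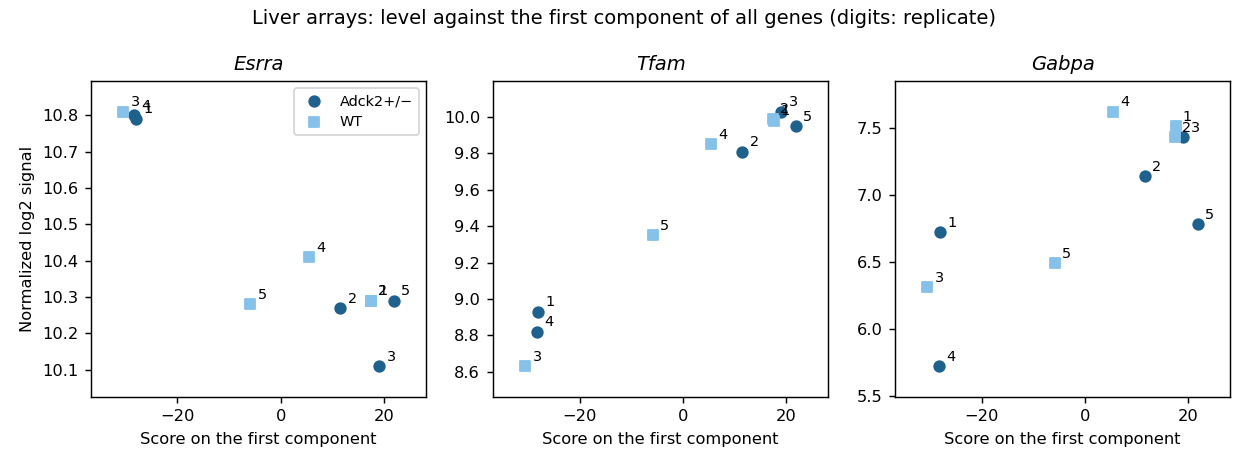
Normalized log2 signal of Esrra, Tfam and the brighter probe of Gabpa (vertical axes) against the score of each liver array on the first principal component of all genes (horizontal axes), with circles for the 5 Adck2+/- and squares for the 5 WT arrays and digits for the replicate. Adck2+/- replicates 1 and 4 and WT replicate 3 lie at the left, with Esrra at 10.79 to 10.81 and Tfam at 8.63 to 8.93.

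The genes most like 4 of these regulators across the 10 arrays of a tissue, by Pearson correlation after the genotype means were taken off, were picked by a rule over all measured genes. Tfam in liver was most like Pex7, a peroxisomal import receptor (r = 0.998), and Rps7, a ribosomal protein (0.995). Esrra in liver was most like Bclaf1 (0.981) and Adipor2, an adiponectin receptor (0.979). Pparg in muscle was most like Chrng, a subunit of the acetylcholine receptor (0.989), and Poc1a (0.989), and Nrf1 in muscle was most like Eif3l and Eif4e3, both translation initiation factors (0.980 and 0.973). The Pparg values follow a single array and the liver values the 3 arrays above, and these correlations are descriptions with no p.

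The difference between the 2 genotype effects was tested over all 20 arrays. None of the 8 regulators measured in both tissues passed, while 3 of 7339 genes did (0.0409%), and 0 of the 8 had an unadjusted p under 0.05, against 1088 of all genes. Gabpa on its brighter probe had the widest difference of effects, 0.74 (SE 0.44, 95% interval -0.18 to 1.67, adjusted p = 0.465), followed by Ppargc1b at -0.42 (SE 0.36), Tfam at 0.32 (SE 0.35) and Pparg at 0.31 (SE 0.38). The mean of the measured Gabpa probes gave 0.46 (SE 0.30, adjusted p = 0.5). The dimmer Gabpa probe had the same sign in both tissues, at 0.56 (SE 0.16) in muscle and 0.41 (SE 0.29) in liver.

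The last comparison set WT muscle against WT liver. Here 8 of 9 regulators passed, 4 of them higher and 4 lower in muscle, against 78.2% of all 9563 genes. The groups did not overlap for 7 of the 9, against 67.1% of all genes. Both counts include Ppara, which was not detected on any muscle array and entered through liver alone, so its direction was fixed by the detection rule. Most genes differed between the tissues, and passing here does not set the regulators apart. Levels in this comparison come from a normalization over all 20 arrays and differ slightly from those above.

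**Figure D4:**
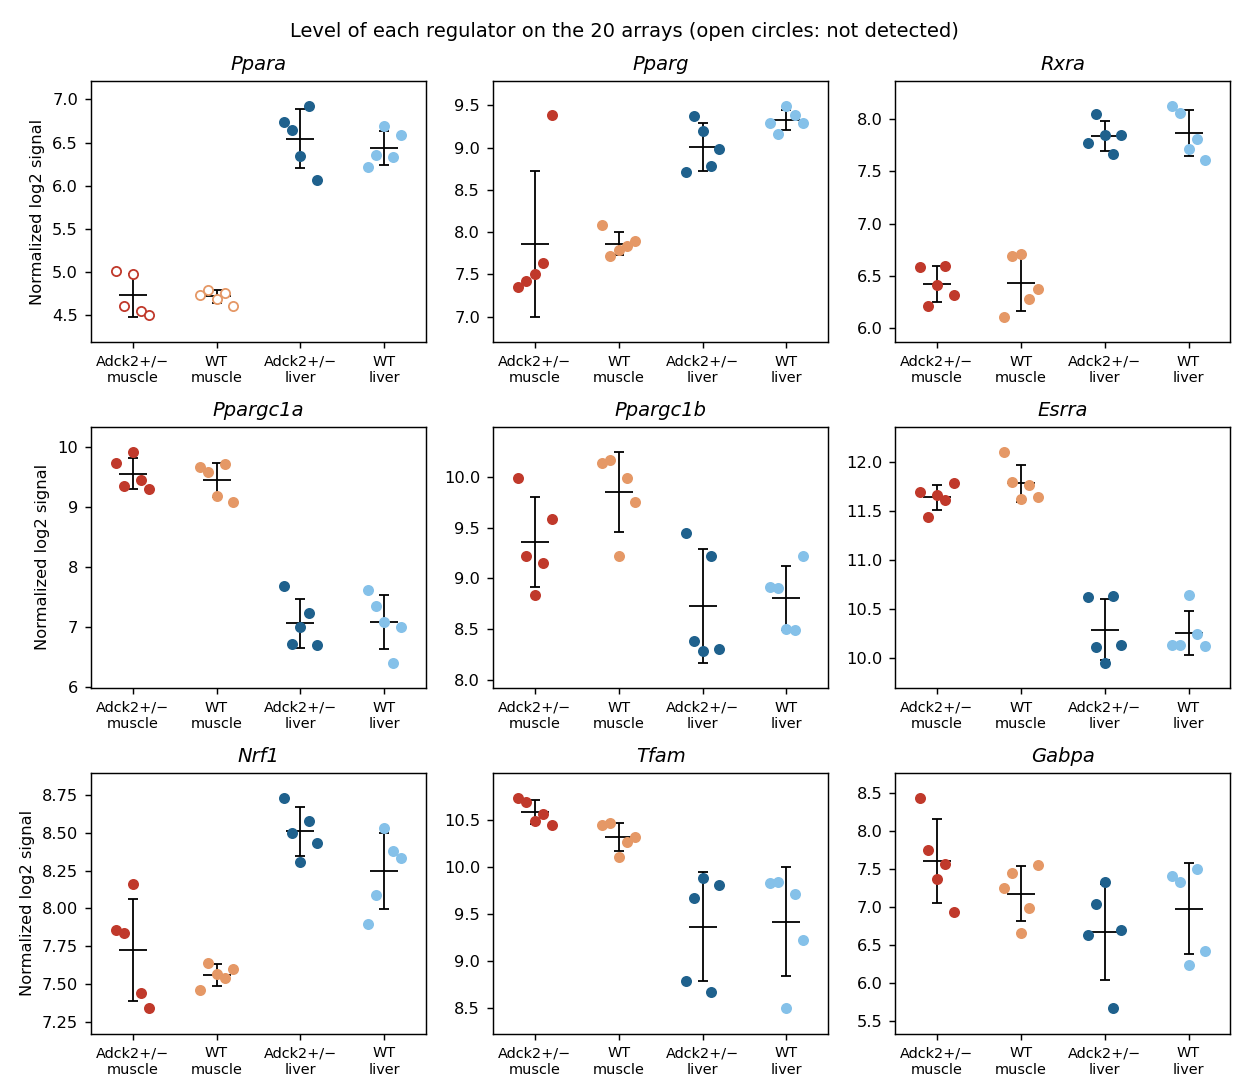
Normalized log2 signal (vertical axes, normalized over all 20 arrays) of the 9 regulators measured in at least 1 tissue, in Adck2+/- muscle, WT muscle, Adck2+/- liver and WT liver. Points are arrays (open where the probe was not detected on any array of the group), horizontal marks are means and bars 1 SD over 5 mice, and Ppargc1a lies between 9.09 and 9.92 in muscle and between 6.40 and 7.68 in liver.

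The PGC-1 and ERR alpha transcripts were higher in muscle. Ppargc1a averaged 9.56 ± 0.26 in Adck2+/- muscle, 9.45 ± 0.29 in WT muscle, 7.06 ± 0.41 in Adck2+/- liver and 7.09 ± 0.45 in WT liver (SD, n = 5 each). WT muscle exceeded WT liver by 2.36 (SE 0.21, a fold of 5.14, adjusted p = 1.59e-09). Esrra averaged 11.64 ± 0.13 in Adck2+/- muscle, 11.78 ± 0.19 in WT muscle, 10.29 ± 0.31 in Adck2+/- liver and 10.25 ± 0.22 in WT liver, with WT muscle higher by 1.53 (SE 0.15, a fold of 2.89). Ppargc1b averaged 9.35 ± 0.44 in Adck2+/- muscle, 9.85 ± 0.39 in WT muscle, 8.73 ± 0.56 in Adck2+/- liver and 8.81 ± 0.31 in WT liver. It was higher in WT muscle by 1.04 (SE 0.25, a fold of 2.06, adjusted p = 0.000822), and WT replicate 3 of muscle reached the highest WT liver value, 9.22.

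Tfam was also higher in WT muscle, by 0.90 (SE 0.25, a fold of 1.86, adjusted p = 0.00241). It averaged 10.58 ± 0.13 in Adck2+/- muscle, 10.31 ± 0.15 in WT muscle, 9.36 ± 0.58 in Adck2+/- liver and 9.41 ± 0.58 in WT liver. Leaving out WT replicate 3 of liver, the low array above, lowered the Tfam difference to 0.66, which still passed. Gabpa averaged 7.61 ± 0.55 in Adck2+/- muscle, 7.17 ± 0.36 in WT muscle, 6.66 ± 0.63 in Adck2+/- liver and 6.97 ± 0.60 in WT liver. It was the 1 regulator that did not pass, at 0.20 (SE 0.31, 95% interval -0.45 to 0.85, adjusted p = 0.57), and its other measured probe gave 0.50 (SE 0.24, adjusted p = 0.0616).

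Ppara, Rxra and Nrf1 were lower in WT muscle, and so was the brighter probe of Pparg. Ppara averaged 4.72 ± 0.08 in WT muscle, where it was not detected on any array, and 6.44 ± 0.20 in WT liver. Because the muscle value is only a bound, WT liver was at least 2.13-fold higher, where the floor is the lowest signal among detected probes. Rxra averaged 6.43 ± 0.26 in WT muscle and 7.86 ± 0.22 in WT liver, a difference of -1.43 (SE 0.14, adjusted p = 3.66e-09). Nrf1 averaged 7.56 ± 0.07 in WT muscle and 8.25 ± 0.25 in WT liver, a difference of -0.69 (SE 0.15, adjusted p = 0.000242). Pparg averaged 7.86 ± 0.14 in WT muscle and 9.32 ± 0.12 in WT liver, a difference of -1.46 (SE 0.27, adjusted p = 4.2e-05). This SE also takes in Adck2+/- muscle, where the SD was 0.86. The other measured Pparg probe did not follow, with 0.32 (SE 0.37, adjusted p = 0.443 in a fit of all probes, of which 77.2% passed), and it was detected on 8 of 10 muscle and 5 of 10 liver arrays, so the direction for Pparg rests on 1 probe. The mean of both gave -0.57 with an adjusted p of 0.089.

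Genes around the regulators were grouped in 9 lists of receptors, cofactors, upstream kinases and targets. In muscle 4 genes of these lists rose and none fell, against 1.23% of all genes that rose and 0.653% that fell. Of 12 measured other receptors 1 rose, Nr3c1, the glucocorticoid receptor, which was 6.83, 6.58, 7.20, 6.76 and 7.02 in Adck2+/- muscle, against 5.91, 6.17, 6.12, 6.25 and 5.45 in WT muscle (difference 0.90, SE 0.17, adjusted p = 0.0281). Of 21 coactivators and corepressors 2 rose. Kat2b, a histone acetyltransferase, was 8.74, 8.91, 9.08, 8.97 and 8.93 in Adck2+/- muscle, against 8.01, 8.30, 7.65, 8.05 and 8.14 in WT muscle (difference 0.90, SE 0.13, adjusted p = 0.0164). Ncoa4, a coactivator that also delivers ferritin for breakdown, was 8.41, 8.41, 8.65, 8.13 and 8.05 in Adck2+/- muscle, against 7.46, 7.89, 6.77, 7.59 and 7.09 in WT muscle (difference 0.97, SE 0.20, adjusted p = 0.0379). Of 28 upstream kinases and CREB or MEF2 factors 1 rose, the calmodulin-dependent kinase Camk2d, by 0.74 (SE 0.13, adjusted p = 0.0198), and 20 of the 28 had a difference below 0 (median -0.13). In all 4 genes the groups did not overlap, against 6.23% of all genes. The 4 were picked by their p on the same arrays, so this is no separate evidence. None of the 4 passed in the second deposited table as given (adjusted p = 0.156 to 0.574), and all 4 did once it was quantile normalized. Kat2b passed whichever muscle array was left out. Camk2d no longer passed without Adck2+/- replicate 3 (adjusted p = 0.0616) or WT replicate 5 (0.067). Nr3c1 no longer passed without Adck2+/- replicate 1 (0.0505), 3 (0.0784) or 4 (0.0559) or WT replicate 1 (0.0556) or 5 (0.0575). Ncoa4 passed without Adck2+/- replicate 5 or WT replicate 2 and with no other array left out (adjusted p of 0.0567 to 0.0987).

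The target lists of the regulators held no called gene in muscle. Of 31 measured PPAR alpha targets, 25 had a difference above 0 and the median was 0.24. Of 31 PGC-1 alpha and ERR targets, 24 were above 0 with a median of 0.17. The median over all genes was -0.01, and the share of all genes above 0 is not given here. Ppara itself was not detected on any muscle array. The 2 lists share genes, among them Acadm, Pdk4 and Ucp3, so their counts are not separate evidence. Whether either list moved as a set was not tested. In these 2 lists the smallest p-values belonged to Acadm, the medium-chain acyl-CoA dehydrogenase, at 0.47 (SE 0.12, adjusted p = 0.0751), the fatty acid transporter Cd36 at 0.65 (SE 0.20, adjusted p = 0.0993) and Kyat3 at 0.73 (SE 0.22, adjusted p = 0.0922). The Cd36 signal was low, with a mean of 6.41 in Adck2+/- and 5.76 in WT muscle, and was detected on 4 of 5 WT muscle arrays. Of 27 NRF1 or GABP targets, 11 were above 0 (median -0.05), with Atp5g1, a subunit of ATP synthase, at -0.54 (adjusted p = 0.114) and Alas1, the first enzyme of haem synthesis, at 0.40 (adjusted p = 0.155). Of 23 genes of mitochondrial DNA transcription and replication, 16 were above 0 (median 0.12), with the helicase Twnk at 0.47 (adjusted p = 0.0632) and the RNA-binding Slirp at -0.91 (adjusted p = 0.121). Of 14 PPAR gamma targets known in adipocytes 6 were above 0 (median -0.03), with the lipase Pnpla2 at 0.49 (adjusted p = 0.0787). Of 6 GABP partners and other respiratory factors 4 were above 0, with the stress factor Atf4 at 0.46 (adjusted p = 0.0506) and the antioxidant factor Nfe2l2 at 0.48 (adjusted p = 0.139). Without Adck2+/- replicate 5, Atf4 (adjusted p = 0.0284), Acadm (0.033), Twnk (0.041) and Slirp (0.029) passed, and Twnk also passed without WT replicate 2 (0.0327). Over all genes 689 passed without Adck2+/- replicate 5 and 155 without WT replicate 2, against 159 with every array.

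In liver 1 gene of the 9 lists rose and none fell. It was the only call among all 8484 genes (0.0118%), of which none fell. Acot3, a peroxisomal acyl-CoA thioesterase and 1 of 36 measured PPAR alpha targets, was 8.78, 8.63, 9.36, 8.89 and 8.26 in Adck2+/- liver, against 7.08, 6.72, 7.33, 7.37 and 6.66 in WT liver. All Adck2+/- values lay above all WT values, with a difference of 1.75 (SE 0.21, adjusted p = 0.0296). Acot3 passed without Adck2+/- replicate 3 or 5 and lost the call with any other liver array left out (adjusted p of 0.0555 to 0.137), with a difference between 1.61 and 1.88 throughout. Without the 3 arrays that stood apart the difference was 1.79, with an adjusted p of 0.274. Of the 36 PPAR alpha targets 25 were above 0, with a median of 0.05 against 0.01 over all genes.

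Of 25 PGC-1 alpha and ERR targets in liver 14 were above 0 (median 0.01). The Krebs cycle enzyme Idh3a differed by 0.43 (adjusted p = 0.341) and Pdk4, the kinase that shuts off pyruvate oxidation, by 1.15 (adjusted p = 0.399). In both the groups did not overlap, against 1.8% of all genes, and both were picked by their p on the same arrays. Of 9 PPAR gamma targets known in adipocytes 2 were above 0 in liver (median -0.26). Pck1 of this list, the gluconeogenic enzyme also made by adipocytes, was 9.82, 9.44, 8.57, 10.11 and 10.27 in Adck2+/- liver, against 10.93, 11.02, 12.24, 10.75 and 11.49 in WT liver (difference -1.64, SE 0.35, adjusted p = 0.341). Whether Pck1 depends on PPAR gamma in liver was not tested. Without the 3 arrays that stood apart Idh3a differed by 0.42, Pdk4 by 1.30 and Pck1 by -1.60, and none passed. Of 27 NRF1 or GABP targets 12 were above 0, with cytochrome c (Cycs) at -0.68 and Rcan1 at 0.33. The smallest p among 16 other receptors belonged to Rxrg (0.50), among 20 coactivators and corepressors to Rbpms (-0.24), among 25 upstream kinases and factors to Prkab1 (0.31), among 23 mitochondrial DNA genes to Lrpprc (-0.23) and among 6 GABP partners to Nfe2l2 (-0.16), with adjusted p of 0.558 or higher.

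**Figure D5:**
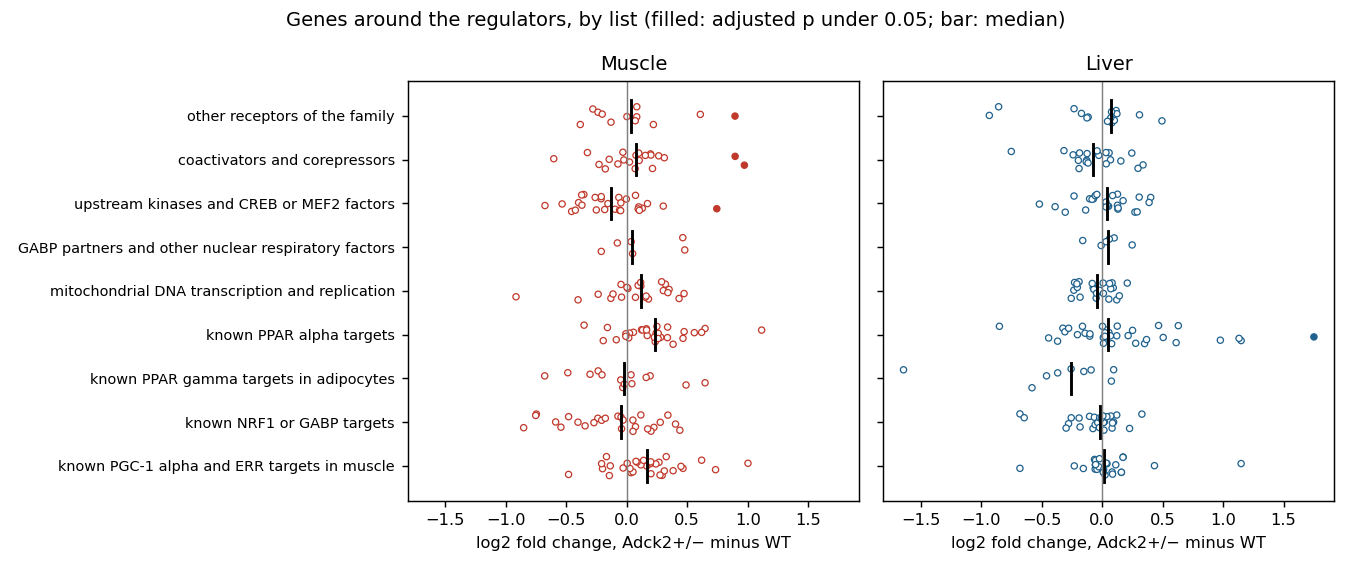
Log2 fold change, Adck2+/- minus WT (horizontal axes), of each measured gene of the 9 lists (rows) in muscle (left panel) and liver (right panel). Circles are genes, filled where the adjusted p was under 0.05, and black bars are list medians. The filled circles are Nr3c1, Kat2b, Ncoa4 and Camk2d in muscle and Acot3 in liver.

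Between the tissues the target lists ran in different directions. The PGC-1 alpha and ERR list was drawn up from targets known in muscle. Genes detected on WT arrays of a single tissue were also counted, such as Mb in muscle and Creb3l3 in liver. The directions thus depended in part on how the lists and the detection rule were chosen. Of 31 PGC-1 alpha and ERR targets, 24 were higher and 5 lower in WT muscle than in WT liver (median 1.69), and of 39 PPAR alpha targets 13 were higher and 21 lower in WT muscle (median -0.97), against 41.2% of all genes higher, 36.9% lower and a median of 0.08. Of 27 NRF1 or GABP targets 16 were higher and 3 lower in muscle (median 0.48), of 15 PPAR gamma targets known in adipocytes 9 were higher and 5 lower (median 1.16), and of 23 mitochondrial DNA genes 8 were higher and 5 lower (median 0.15). Among genes detected on all WT arrays, Idh3a was higher in WT muscle by 5.15 (SE 0.12), Pdk4 by 5.13 (SE 0.31), Cycs by 1.32 (SE 0.23), Twnk by 1.61 (SE 0.25) and Tfb2m, a mitochondrial transcription factor, by 1.15 (SE 0.10). Others so detected were lower in WT muscle, such as Kyat3 at -3.04 (SE 0.37), Cox6a1 at -2.74 (SE 0.37) and Ehhadh at -5.11 (SE 0.13). Tfb2m and these lower genes were chosen after their values were seen.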

How the data were processed

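Per the labels, total RNA was labelled as biotinylated cRNA with a kit for Illumina arrays, and the probe names are Illumina's, whereas the methods of the study name an Affymetrix chip. The authors deposited a table of bead intensity with a detection p-value per probe and array, not normalized and not background-corrected. A second deposited table of intensity values was equal to it for 23532 of 25697 probes, while 2165 held the signal of another probe, so it served as an alternative. Slides are not given in the sources used here.

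Intensities were corrected and normalized in limma 3.58.1 (R 4.3.3) with neqc: normexp background from the detection p-values, offset 16, quantile normalization, log2. A probe entered the test of a tissue if it was detected (p under 0.05) on 5 or more of its 10 arrays (12115 in muscle, 12083 in liver), and the brightest one stood for its gene (8424 and 8484 genes). Symbols were updated through Entrez IDs for 23962 of 23978 probes with a gene. The genotype contrast was fitted by lmFit with eBayes moderation, with Benjamini-Hochberg adjustment over all genes and calls at an adjusted p under 0.05. A fit of all 20 arrays gave the tissue comparison and the difference of effects. The p-values measure the spread between 5 mice a group. The fits were tested on simulated data. Figures were drawn with matplotlib 3.10.9.

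The regulators and gene lists were chosen with earlier results of these data known. All 10 regulators are named. In each list and tissue every called gene is named (up to 4), otherwise the 2 with the smallest p, of which some are given by their p only. Alternatives covered background, offset, scaling, filter, probe choice, model and each array left out. The genotype test had no replicate block. Within a tissue most same-numbered arrays did not deviate together, and whether equal numbers mark 1 mouse across tissues was not checked, so the fit of all 20 arrays treated them as separate.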

Additional observations from a re-analysis of the deposited data

Results flagged for a closer look

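In 34 groups of 5 arrays, 1 for each regulator, genotype and tissue, the gap of the highest or lowest array to its neighbour was compared with the range of the group. In 2 groups it took up more than 0.71 of the range, and chance alone gives this in about 1 group of 20. Pparg on Adck2+/- replicate 5 of muscle was 9.24, far above the other 4 arrays of its group. Esrra on WT replicate 3 of liver was 10.81, above the other 4 arrays of its group, and this is 1 of the 3 liver arrays that stood apart on the first component.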

How the results depend on the processing

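None of the regulators passed in muscle or liver, or in the difference of effects, under any alternative run. By probe in muscle the count was 0 to 1 with single arrays left out. Between WT muscle and WT liver 8 passed throughout, except 7 with the probes of a gene averaged. The count over all muscle genes ran from 0 to 354 over the settings that kept all arrays and from 14 to 689 with single arrays left out.

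These differences changed sign, and the cause was not tested. In muscle Pparg was -0.0406 with median scaling, -0.00679 normalized over 20 arrays and -0.139 with array weights. Rxra was 0.0696 in the second deposited table and 0.0549 with array weights. Gabpa was -0.000129 with that table quantile normalized. Without Adck2+/- 5 and WT 2, an alternative chosen after seeing the data, Pparg was -0.41 and Rxra 0.0831. In liver, where median scaling moved the median of all genes by 0.145, Rxra was then 0.159, Ppargc1a 0.139, Ppargc1b 0.102, Tfam 0.123 and Nfe2l2 0.0219. The second table, not normalized, moved it by 0.257, and Pparg was 0.0631, Rxra 0.277, Ppargc1a 0.233, Ppargc1b 0.257, Tfam 0.291, Gabpa 0.13, Rbpms 0.125, Nfe2l2 0.192, Cycs 0.18, Lipe 0.0719, Lrpprc 0.123 and Tfb1m 0.12. Gabpa was 0.0496 as a mean of probes. With array weights Rxra was 0.0203 and Esrra -0.0337. Without the 3 arrays that stood apart, chosen after seeing the data, Ppara was -0.0205, Rxra 0.0207, Esrra -0.0918 and Tfam 0.135. In the difference of effects, median scaling gave Rxra -0.182 and Ppargc1a -0.0838. Between tissues, Gabpa was -0.0228 with each tissue normalized alone and Pparg 0.316 on its other probe.

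With single arrays left out, Pparg in muscle ran between -0.374 and 0.128 and Rxra between -0.0839 and 0.0611, while Gabpa (0.222 to 0.586) and Nrf1 (0.0529 to 0.252) kept their sign. In liver Rxra ran between -0.0882 and 0.0415, Ppargc1a between -0.203 and 0.109, Ppargc1b between -0.258 and 0.0326, Esrra between -0.0512 and 0.133, and Tfam between -0.285 and 0.119. Gabpa (-0.506 to -0.0568) and Ppara (0.0124 to 0.231) kept theirs. The difference of effects ran between -0.0716 and 0.437 for Pparg, -0.000395 and 0.302 for Ppargc1a, and -0.063 and 0.0875 for Rxra.

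The replicate numbers paired few samples: same-numbered arrays deviated together (correlation over 0.1) in 1 of 5 pairs in each tissue. With the replicate block 0 regulators passed, 0 genes of all passed in muscle against 159 without it, and Kat2b, Ncoa4, Nr3c1 and Camk2d had an adjusted p of 0.108. The paired t-test of the methods gave 1413 of all 8424 genes in muscle at their threshold without adjustment, with Ppargc1b and Tfam among them. In liver it gave 478 of 8484 genes with 0 regulators. After Benjamini-Hochberg adjustment it gave 0 in either tissue. The second table as deposited also ended the 4 muscle calls (adjusted p 0.156 to 0.574). Acot3 in liver missed the threshold without the filter (0.0679). A block on the slide could not be run, because no slide is named.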
